A study of Homo sapiens with 16 samples.

Results

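Distal H3K4me1 regions gained after KDM6B knockdown were stretches of the genome that carried an island of histone H3 lysine 4 monomethylation in both siKDM6B33 libraries of BE2C cells and in neither siCtrl library. Islands are broad regions of enriched signal that the authors called in each library. The 4 island lists were joined where they shared at least 1 bp, which gave 30505 merged regions, and a gained region counted as distal when it was autosomal and no protein-coding start lay inside it or within 1 kb. By this rule 2080 regions were gained and distal, out of 18854 autosomal distal regions (11.0%) and of 7345 autosomal gained regions. The other 5265 gained regions lay at promoters. The regions were chosen by the H3K4me1 island calls of the knockdown experiment, so all H3K4me1 values of those 4 libraries are given as a description, without a test.

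BE2C cells come from a human neuroblastoma and carry an amplified MYCN gene. CUT&Tag, in which an antibody guides a transposase to a histone mark, was run for H3K4me1 and for trimethylated H3 lysine 27 (H3K27me3). For each mark there were 2 libraries of cells given the control siRNA siCtrl, 2 given the siRNA siKDM6B33, 2 given 0.1% DMSO and 2 given 2.5 µM GSK-J4, all for 72 h, which made 16 libraries in 8 groups. The study calls the replicates biological, while the labels do not say whether they were separate cultures, so p-values measure only the spread between these libraries. The extent of the knockdown was not measured in these data.

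KDM6B removes methyl groups from H3 lysine 27, and GSK-J4 inhibits the KDM6 demethylases. H3K27me3 is laid down by Polycomb complexes over silent genes, often at CpG islands, which are stretches rich in unmethylated CpG that form most promoters of broadly used genes. H3K4me1 is laid down mainly by the KMT2C and KMT2D enzymes, marks enhancers whether active or poised, and flanks active promoters. In neuroblastoma of the adrenergic type, enhancers with this mark lie around regulators such as HAND2, GATA3, ISL1 and TBX2.

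The label of the cells was checked at marker starts. Of 10 adrenergic markers, an H3K4me1 island covered the start of 6 and 7 with siCtrl, 10 and 10 with siKDM6B33, 5 and 4 under DMSO, then 4 and 3 under GSK-J4. Of 7 markers of other cell types, 1 or 2 were covered in each library, namely SPI1, COL1A1 or both. The genome background of the H3K4me1 libraries, a measure of depth in tags per base read from the narrow peak lists, was 0.0902 and 0.0849 with siCtrl and 0.107 and 0.105 with siKDM6B33. Depth therefore moved with the knockdown, and its part in the number of gained regions was not tested. With equal covered length per library 951 distal regions were gained, and with equal numbers of islands 1338.

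The gained distal regions were split into 2 kinds by their sequence. In 671 of them (32.3%) at least one window of 500 bp had a GC content of at least 55% and an observed over expected CpG ratio of at least 0.65, and these are called CpG-island-like here. The same held for 157 of 3808 lost distal regions (4.12%), which were called in both siCtrl and neither siKDM6B33 library, for 1236 of 8501 distal regions called in all 4 libraries (14.5%), and for 13.2% of all autosomal distal regions. It held for 96.5% of the gained regions at promoters. The other 1409 gained distal regions were poor in GC, with a median of 39.4%, against 49.2% for lost and 45.6% for shared distal regions that were not CpG-island-like either. Few members lay close to the limit of the ratio, with 77 (3.70%) whose highest ratio was within 0.05 of it. Closeness to the GC limit was not counted. Over the whole region, 206 members (9.90%) had a ratio of at least 0.65.

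The sequence at the H3K4me1 summit is shown for members of each kind. The following 4 stretches of 200 bases, 5′ to 3′ on hg19, are centred on the strongest narrow peak of CpG-island-like members, each named by its nearest protein-coding gene, and CpG dinucleotides are in capitals. They are the 4 members with the highest island scores whose peak lay outside annotated exons.
NCR2 region, chr6:41339254-41339453, plus strand: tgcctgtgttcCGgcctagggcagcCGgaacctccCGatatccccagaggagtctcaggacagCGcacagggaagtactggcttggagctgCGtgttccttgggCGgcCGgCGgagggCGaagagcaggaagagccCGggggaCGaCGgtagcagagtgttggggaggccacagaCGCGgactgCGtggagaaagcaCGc
ANXA2R region, chr5:43068332-43068531, plus strand: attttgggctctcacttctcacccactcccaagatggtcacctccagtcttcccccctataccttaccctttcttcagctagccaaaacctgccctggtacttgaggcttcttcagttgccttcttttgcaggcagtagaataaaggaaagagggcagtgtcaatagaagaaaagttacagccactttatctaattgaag
BMP8A region, chr1:39874316-39874515, plus strand: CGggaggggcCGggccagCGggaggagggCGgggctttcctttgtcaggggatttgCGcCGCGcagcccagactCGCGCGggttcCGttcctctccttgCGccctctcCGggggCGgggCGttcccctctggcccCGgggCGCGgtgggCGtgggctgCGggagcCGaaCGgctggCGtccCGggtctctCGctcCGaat
DHX15 region, chr4:24471859-24472058, plus strand: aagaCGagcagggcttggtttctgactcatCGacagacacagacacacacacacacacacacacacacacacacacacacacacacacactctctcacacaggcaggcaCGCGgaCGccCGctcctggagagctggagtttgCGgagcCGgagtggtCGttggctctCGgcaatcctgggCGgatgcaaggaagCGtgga
In these windows there were 16, 0, 26 and 12 CpG dinucleotides, in the order printed, so the summit window of the ANXA2R member held none. The next 4 come from members that were not CpG-island-like. Those near ANO6 and SLCO4C1 had the highest scores among members that also gained H3K4me1 with GSK-J4. Those near CGNL1 and ETV1 gained H3K27me3 after knockdown and were the highest of that group whose peak lay outside annotated exons.
ANO6 region, chr12:45653613-45653812, plus strand: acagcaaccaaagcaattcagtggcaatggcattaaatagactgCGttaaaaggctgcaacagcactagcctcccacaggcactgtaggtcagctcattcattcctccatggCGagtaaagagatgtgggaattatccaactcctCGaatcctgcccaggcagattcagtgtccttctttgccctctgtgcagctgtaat
SLCO4C1 region, chr5:101213709-101213908, plus strand: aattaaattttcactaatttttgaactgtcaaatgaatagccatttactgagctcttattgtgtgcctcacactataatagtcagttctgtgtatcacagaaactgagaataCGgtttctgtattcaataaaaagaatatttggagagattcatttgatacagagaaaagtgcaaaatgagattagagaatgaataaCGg
CGNL1 region, chr15:57750076-57750275, plus strand: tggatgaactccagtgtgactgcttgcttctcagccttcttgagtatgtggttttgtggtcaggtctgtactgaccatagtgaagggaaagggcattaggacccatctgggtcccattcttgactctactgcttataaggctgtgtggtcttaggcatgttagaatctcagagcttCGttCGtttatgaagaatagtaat
ETV1 region, chr7:13506540-13506739, plus strand: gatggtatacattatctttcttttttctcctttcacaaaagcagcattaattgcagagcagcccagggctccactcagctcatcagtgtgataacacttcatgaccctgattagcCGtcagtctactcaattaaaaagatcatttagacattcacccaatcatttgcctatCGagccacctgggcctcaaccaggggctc
These held 3, 2, 2 and 2 CpG dinucleotides. Among all named members with such a window, the count ran from 0 to 26 in 10 CpG-island-like members and from 1 to 7 in 10 others, so the kinds overlapped. Over windows of 300 bp around the strongest peak, the median was 21.0 CpG in CpG-island-like members and 3.0 in the other members.

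**Figure D1:**
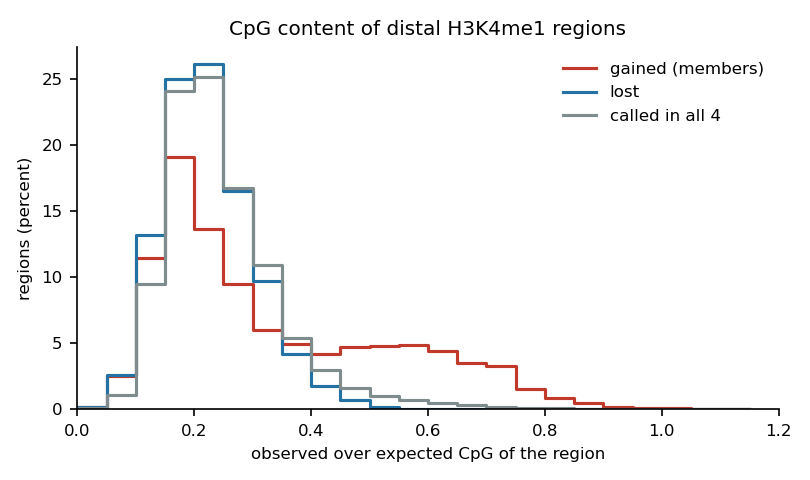
Observed over expected CpG ratio of whole regions (x axis, bins of 0.05) against the percent of regions in each bin (y axis), for gained, lost and shared distal regions. Lost and shared regions form a peak at low ratios, with medians of 0.216 and 0.229, whereas the gained regions have a median of 0.267 and a shoulder at high ratios, with an upper quartile of 0.494.

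Gained distal regions were narrow, with a median width of 2800 bp (5th to 95th percentile 1400 to 6200 bp), against 3200 bp for lost and 5400 bp for shared distal regions. Together they covered 6.70 Mb. Islands of the siKDM6B33 libraries covered the centre of 96.8% and 96.9% of them, and at 10 kb downstream this fell to 8.75% and 8.56%. The siCtrl libraries had no island at the centre by the rule, and 4.62% and 4.38% at 10 kb downstream. In the compound experiment, which the rule did not use, the centre was covered in 13.2% and 8.51% in the DMSO libraries, and in 12.6% and 12.3% in the GSK-J4 libraries.

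**Figure D2:**
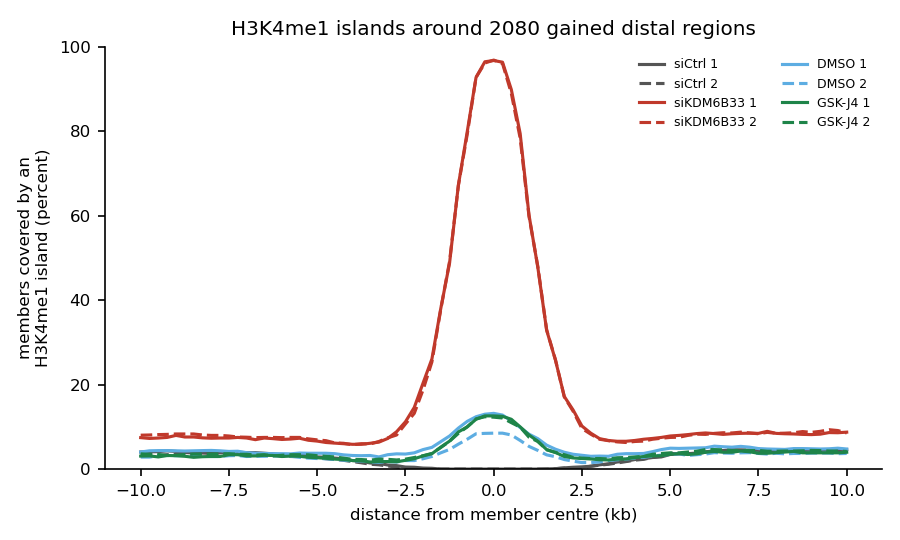
Percent of the 2080 gained distal regions covered by an H3K4me1 island (y axis) by distance from the region's centre in kb (x axis), 1 line for each of 8 libraries, with replicate 2 dashed. The siKDM6B33 lines reach 96.8% and 96.9% at the centre, the siCtrl lines lie at 0 there because of how regions were chosen, and the DMSO and GSK-J4 lines form a low peak.

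Most gained regions held some H3K4me1 signal with siCtrl. A narrow peak, called by the authors with another caller, lay in 1525 (73.3%) and 1486 (71.4%) of the gained regions in the siCtrl libraries, against 2036 (97.9%) and 2021 (97.2%) in the siKDM6B33 libraries. In both siCtrl libraries a narrow peak was present in 1218 members (58.6%), and in neither in 287 (13.8%). The highest summit of a member had a median pileup of 4 and 3 tags with siCtrl and 10 and 10 tags with siKDM6B33. Divided by the genome background of the library, the medians were 44.4 and 35.3 against 93.5 and 95.1. Distal regions shared by all 4 libraries had higher summits, at 166 and 177 with siCtrl and 140 and 143 with siKDM6B33. Per member, the scaled summit was higher in both siKDM6B33 libraries than in both siCtrl libraries in 1781 members (85.6%), lower in 7, and overlapping in 292. These counts describe the choice of members.

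**Figure D3:**
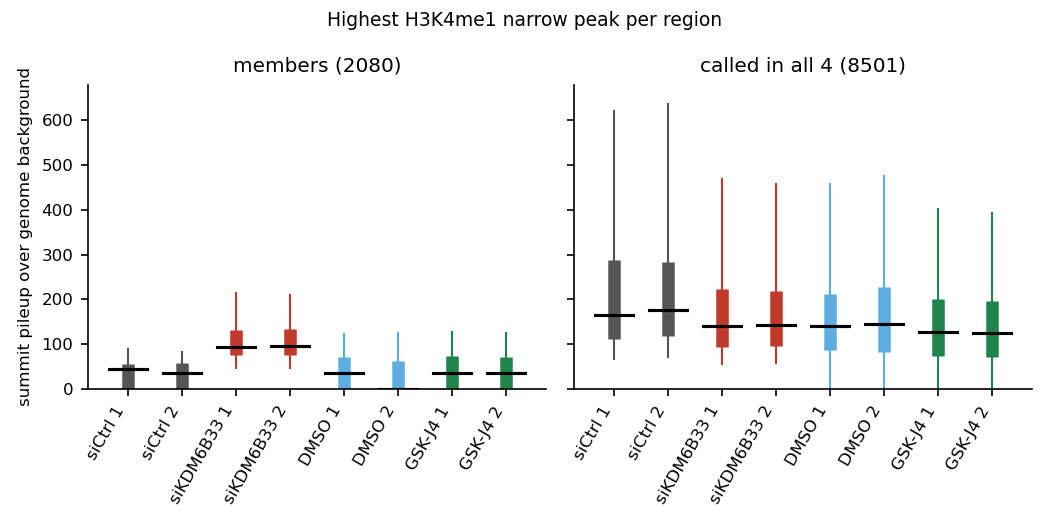
Highest H3K4me1 summit pileup of a region divided by the genome background of the library (y axis) in the 8 H3K4me1 libraries (x axis), for gained distal regions and for those called in all 4 libraries. Black lines are medians, thick bars the middle 50% and thin lines the 5th to 95th percentiles, with regions without a peak at 0; gained regions have medians of 93.5 and 95.1 in the siKDM6B33 libraries and at most 44.4 elsewhere.

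At the edge of the rule, members had median island scores of 140 and 139 in the siKDM6B33 libraries. The 599 distal regions called in both siKDM6B33 and 1 siCtrl library had medians of 158 and 162. The 979 called in 1 siKDM6B33 and no siCtrl library had medians of 93.1 and 93.1. Gained regions with a start within 1 kb but not inside numbered 30, with medians of 143 and 143, and the 43 members with a start at 1 to 2 kb had 143 and 134. Gained regions with a start inside had higher scores, with medians of 235 and 230 over 5235 regions.

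Many CpG-island-like members lay at starts of transcripts that are not in the protein-coding set. An annotated start of any kind lay inside or within 1 kb of 405 of the 671 (60.4%), against 216 of the other 1409 members (15.3%). A long noncoding RNA (lncRNA) start lay there in 292 (43.5%) and 116 (8.23%), and a pseudogene start in 100 (14.9%) and 19 (1.35%). CpG-island-like shared distal regions had a start of any kind in 54.2%, a lncRNA start in 31.6% and a pseudogene start in 5.34%. CpG-island-like lost regions had these in 30.6%, 12.1% and 3.82%. Over all members, 408 (19.6%) had a lncRNA start, against 6.54% of lost and 12.9% of shared distal regions. In 190 members (9.13%, against 11.0% of all autosomal distal regions) the start belonged to a transcript of a protein-coding gene outside the basic set, so these members were distal only by the annotation used. No start of any kind lay near 1459 members, of which 18.2% were CpG-island-like, against 3.49% of lost distal regions under the same limit.

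The positions of the kinds also differed. CpG-island-like members had their nearest protein-coding start at a median of 22.7 kb and the other members at 87.4 kb, against 40.6 kb for lost and 48.0 kb for shared distal regions. CpG-island-like lost and shared regions also lay closer, at medians of 33.3 kb and 26.9 kb. Lost and shared regions of the other kind had medians of 40.8 kb and 53.9 kb. Of the members that were not CpG-island-like, 654 (46.4%) lay more than 100 kb from a start. This compares with 26.4% of lost and 33.6% of shared regions of that kind. Bodies of protein-coding genes held 942 members (45.3%), against 60.6% of lost and 60.1% of shared distal regions, and 369 members (17.7%) touched a coding gene's exon, against 24.4% of lost, 27.3% of shared and 23.8% of all autosomal distal regions.

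**Figure D4:**
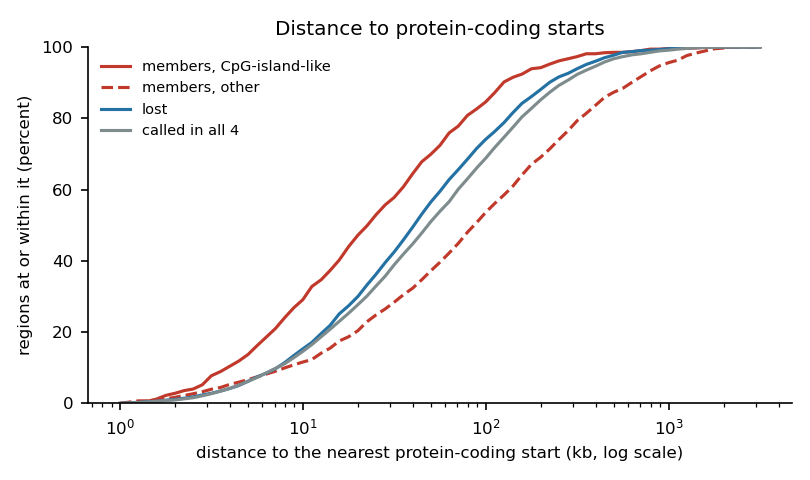
Distance from a region to the nearest protein-coding start in kb (x axis, log scale) against the cumulative percent of regions (y axis), for CpG-island-like and other gained distal regions and for lost and shared distal regions. The curves are close together and cross at short distances, and at their middle that of CpG-island-like members lies furthest left (median 22.7 kb) and that of the other members furthest right (median 87.4 kb). Lost and shared regions are not split by kind here.

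The 12 highest members, ranked by the lower of their 2 siKDM6B33 island scores and taken once per nearest gene, were all CpG-island-like. The highest lay at chr6:41338601-41344800, 35 kb from NCR2, which encodes a natural killer cell receptor, and contained no annotated start. Its island scores were 1072 and 1062, and its H3K4me1 summits were 4 and 0 tags with siCtrl and 30 and 28 tags with siKDM6B33. H3K27me3 islands covered 100% of it in all 8 H3K27me3 libraries. In the compound experiment its H3K4me1 island cover was 96.8% and 83.9% in the DMSO libraries and 90.3% and 96.8% in the GSK-J4 libraries, so those groups overlapped.

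The second, at chr5:8455801-8460000, lay 587 kb from MTRR, which encodes methionine synthase reductase, and contained starts of the lncRNA genes ENSG00000249159, LINC02226 and MIR4458HG. Its summits were 4 and 7 tags with siCtrl and 41 and 37 with siKDM6B33, with scores of 1000 and 1047. It held no H3K27me3 island in any library and no H3K4me1 island in the compound experiment except in DMSO replicate 1, over 23.8%. The fourth, nearest to BMP8A, a bone morphogenetic protein, lay at chr1:39873201-39881600 within MACF1, a cytoskeletal linker. It contained a MACF1 start outside the basic set, and its summits were 8 and 6 tags with siCtrl and 40 and 30 with siKDM6B33.

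The member nearest to FOS, an AP-1 subunit, lay at chr14:75759801-75763200, 12.9 kb from its start, over the start of LINC01220. Its scores were 899 and 802 and its summits 7 and 6 tags with siCtrl and 23 and 19 with siKDM6B33. With DMSO and with GSK-J4, replicate 1 had an H3K4me1 island over 82.4% of it and replicate 2 had none. The member at chr5:76924401-76927600 overlapped an exon of OTP, a homeobox regulator of hypothalamic neurons, and lay 6.94 kb from its nearest start. H3K27me3 islands covered 100% of it in both siCtrl and both siKDM6B33 libraries, and its H3K4me1 summits were 7 and 3 tags with siCtrl and 29 and 30 with siKDM6B33.

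The other members of this group were nearest to ANXA2R, DHX15, WDR73, DEF8, MGAT1, ZNF213 and ARHGAP5. Their lower scores ran from 678 near ARHGAP5 to 951 near ANXA2R. The DHX15 member, 111 kb from this RNA helicase gene, contained the start of lncRNA ENSG00000289201 and was covered by H3K27me3 islands over 92.9% and 75% with siCtrl and 96.4% and 100% with siKDM6B33. The ANXA2R member lay over exons of ZNF131, 20.9 kb from ANXA2R, and contained a ZNF131 start outside the basic set and the start of the lncRNA ANXA2R-OT1. It had no narrow peak with siCtrl and summits of 14 and 17 tags with siKDM6B33. Starts of lncRNA genes also lay in the WDR73, MGAT1, ZNF213 and ARHGAP5 members.

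To ask whether the inhibitor was accompanied by H3K4me1 at the same places, islands of the compound experiment were counted over the members. For comparison, 57.1% of all autosomal distal regions held an H3K4me1 island in DMSO replicate 1 and 53.4% in DMSO replicate 2. In GSK-J4 replicates 1 and 2 this background share was 56.1% and 56.8%. An H3K4me1 island lay in 14.1% and 9.33% of the members in the DMSO libraries, and in 13.8% and 13.8% in the GSK-J4 libraries. The means were 11.7 ± 3.40% and 13.8 ± 0.0340% (SD, n = 2 each), and the difference of 2.09 percentage points was within the spread of the DMSO libraries (exact permutation p = 1.00, two-sided). The smallest p that 2 against 2 libraries allow is 0.33. Without DMSO replicate 2 the difference was -0.312, and without DMSO replicate 1 it was 4.50. The genome background of DMSO replicate 2 was 0.0483, against 0.0547 to 0.0569 in the other 3 of these libraries.

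The values of the kinds of member are given apart. CpG-island-like members had an H3K4me1 island in 27.4% and 19.2% with DMSO and in 19.5% and 21.2% with GSK-J4, which overlapped. The other members had one in 7.81% and 4.61% with DMSO and in 11.1% and 10.3% with GSK-J4, with both GSK-J4 libraries above both DMSO libraries (exact permutation p = 0.33, the smallest possible). Lost distal regions that were not CpG-island-like had one in 45.4% and 40.8% with DMSO and in 49.2% and 49.3% with GSK-J4. Shared distal regions of that kind had one in 87.7% and 85.0%, then in 82.4% and 83.6%. The difference between the kinds of member was not tested.

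Member by member, 55 (2.64%) were gained with GSK-J4, in both GSK-J4 and neither DMSO library, against 4.35% of all autosomal distal regions. Lost with GSK-J4 were 24 (1.15%), against 3.42%. No H3K4me1 island was present in any of the 4 libraries in 1602 members (77.0%), against 29.6% of all autosomal distal regions. Of the 55 gained with GSK-J4, 48 were not CpG-island-like, and of the 24 lost, 15 were.

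The highest of the members gained with both treatments lay in ANO6, a phospholipid scramblase gene, at chr12:45649601-45655200. Its H3K4me1 summits were 6 and 6 tags with siCtrl and 18 and 24 with siKDM6B33. No narrow peak was called in it under DMSO, and its summits under GSK-J4 were 3 and 11 tags. The next lay 415 kb from SLCO4C1, an organic anion transporter, with 6, 7, 32 and 33 tags in the knockdown experiment and 4, 3, 8 and 8 in the compound experiment, in the same order of groups. The member 517 kb from CADM2, a synaptic adhesion molecule, had 11, 9, 28 and 42 tags and then 5, 5, 11 and 15. The others were near FAM216B and inside ABL1, a tyrosine kinase gene, with ENSG00000288570 as nearest start. In these 5 members both GSK-J4 summits exceeded both DMSO summits, with a missing peak counted as 0, and all were of 15 tags or fewer. They were chosen for islands in both GSK-J4 and neither DMSO library, so this order largely follows from the choice.

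The highest members lost with GSK-J4 lay near MPZL1, OR1F1, SLC44A5, RAET1L and POU4F1. POU4F1 is a homeobox regulator of sensory neurons, and its member at chr13:79167601-79171600, 6.09 kb away, had H3K4me1 islands over 50.0% and 20.0% with DMSO and none with GSK-J4. Its summits were 10 and 7 tags under DMSO, then 0 and 9 under GSK-J4, so the narrow peaks overlapped where the islands did not. H3K27me3 islands covered 100% of the POU4F1 and RAET1L members in all 8 H3K27me3 libraries. The OR1F1 and SLC44A5 members were covered over at least 59.4% in each of these libraries. The MPZL1 member, the highest of these 5, had an H3K27me3 island in siCtrl replicate 2 over 58.3%, in siKDM6B33 replicate 2 over 37.5% and in GSK-J4 replicate 1 over 58.3%, and none in the other 5 libraries.

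Members were compared with lost distal regions in the 4 H3K4me1 libraries of the compound experiment. Lost regions had an island in 46.0%, 41.3%, 49.8% and 50.0% and members in 14.1%, 9.33%, 13.8% and 13.8%, in the order DMSO 1 and 2, GSK-J4 1 and 2. Members were lower in 4 of 4 libraries, by a mean of -34.0 ± 2.41 percentage points (SD, n = 4). Members were chosen for having no H3K4me1 island in control BE2C cells and lost regions for having one, so this difference follows from the choice in other libraries of the same cells and is given without a test. For narrow peaks the mean difference was -5.63 points.

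H3K27me3 was then asked at the same regions, since KDM6B acts on this mark. An H3K27me3 island lay in 16.9% and 17.5% of the members with siCtrl and in 18.3% and 18.1% with siKDM6B33. The means were 17.2 ± 0.408% and 18.2 ± 0.170% (SD, n = 2 each), and the groups did not overlap (difference 0.986 points, exact permutation p = 0.33, two-sided). With equal numbers of islands per library the difference was -1.11 points. By narrow peaks it was 4.09 points, with 19.7% and 20.0% of the members under siCtrl and 24.2% and 23.7% under siKDM6B33. All autosomal distal regions moved the same way, from 5.01% and 5.04% to 5.43% and 5.33% by islands and from 8.94% and 8.98% to 11.0% and 10.1% by narrow peaks. The genome background of these libraries was 0.0395 and 0.0401 with siCtrl and 0.0539 and 0.0529 with siKDM6B33, and its part in the difference was not tested.

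Of the members, 21 (1.01%) gained H3K27me3 after knockdown, against 0.414% of all autosomal distal regions, and 2 (0.0962%) lost it, against 0.180%. H3K27me3 was present in all 4 libraries in 332 members (16.0%), against 4.26% of all autosomal distal regions, and of these 332 members 260 were CpG-island-like. Gained regions at promoters had an H3K27me3 island in 19.8% to 20.4% in each of these libraries. The highest member with a gain of H3K27me3 lay in CGNL1, a cell junction gene, at chr15:57745801-57751800. H3K27me3 islands covered 6.67% and 66.7% of it with siKDM6B33 and none with siCtrl, and its H3K4me1 summits were 2 and 0 tags with siCtrl and 38 and 26 with siKDM6B33. Near ETV1, an ETS factor gene at 519 kb, H3K27me3 islands covered 80% and 100% with siKDM6B33, and near the activin receptor gene ACVR2A at 1267 kb 80% and 60%, with none in siCtrl. The others were near VRK1 and ENSG00000272297. In the compound experiment none of these 5 held an H3K27me3 or H3K4me1 island.

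The 2 members that lost H3K27me3 lay in DUSP15 and 12.2 kb from BCL11A, a zinc finger repressor. H3K27me3 islands covered 100% and 95% of the BCL11A member with siCtrl and none of it with siKDM6B33. Its lower H3K4me1 score was 86.8, and its H3K4me1 summits were 7 and 4 tags with siKDM6B33, with no narrow peak in either siCtrl library. The DUSP15 member was covered by H3K27me3 over 75% and 56.2% with siCtrl.

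In the compound experiment an H3K27me3 island lay in 11.9% and 12.1% of the members with DMSO and in 14.9% and 12.2% with GSK-J4. The means were 12 ± 0.102% and 13.6 ± 1.90% (SD, n = 2 each, difference 1.56 points, exact permutation p = 0.33, two-sided). Without GSK-J4 replicate 1 the island difference was 0.216 points, and with equal numbers of islands it was -0.962 points. By narrow peaks it was 13.3 points, with 25.6% and 32.2% of the members under DMSO and 48.0% and 36.5% under GSK-J4, so both GSK-J4 libraries lay above both DMSO libraries. All autosomal distal regions moved the same way, from 33.3% and 38.4% to 57.1% and 44.1% by narrow peaks and from 14.3% and 15.3% to 38.7% and 17.6% by islands. GSK-J4 replicate 1 held 16676 H3K27me3 islands against 7175 to 8006 in the other 3, and its genome background was 0.0507 against 0.0298 to 0.0371. Gains of H3K27me3 with GSK-J4 were found in 10 members (0.481%), against 2.56% of all autosomal distal regions, and losses in 1 (0.0481%), against 0.0371%.

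Shared distal regions differed from the members in these libraries. An H3K27me3 island lay in 26.5% and 28.5% of the shared regions with DMSO and in 67.5% and 33.1% with GSK-J4, but in 3.99% to 4.43% of them in the knockdown experiment. The members had 11.9% to 14.9% and 16.9% to 18.3%. With siCtrl the members thus lay above the shared regions, and with DMSO below them. The same held for gained regions at promoters, with 20.3% and 20.4% under siCtrl and 14.3% and 14.5% under DMSO.

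Against lost distal regions, members had more H3K27me3 islands in 7 of 8 libraries. Lost regions had 1.31% to 2.42% in these 7 libraries and 17.8% in GSK-J4 replicate 1. The mean difference was 11.6 ± 6.62 points (SD, n = 8). It was looked at after the shares were seen, over replicates of 4 conditions of the same cell line, and is given without a test. Among regions that were not CpG-island-like, members were also higher in 7 of 8 libraries, with 2.84% to 7.24% against 1.12% to 2.14% of the lost regions. In GSK-J4 replicate 1 the shares of these kinds were 4.83% and 17.3%. Their mean difference was 1.56 ± 6.08 points over the 8 libraries and 3.56 points without GSK-J4 replicate 1. CpG-island-like members had an H3K27me3 island in 40.4% and 41.4% with siCtrl, 41.6% and 41.0% with siKDM6B33, 31.0% and 31.4% in the DMSO libraries, and 36.1% and 31.7% in the GSK-J4 libraries. In the same order, CpG-island-like shared regions had one in 16.7%, 16.3%, 17.6%, 16.6%, 46.1%, 48.8%, 74.7% and 50.8%. CpG-island-like lost regions had one in 5.73%, 7.01%, 7.64%, 5.73%, 5.73%, 5.73%, 29.3% and 8.92%.

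**Figure D5:**
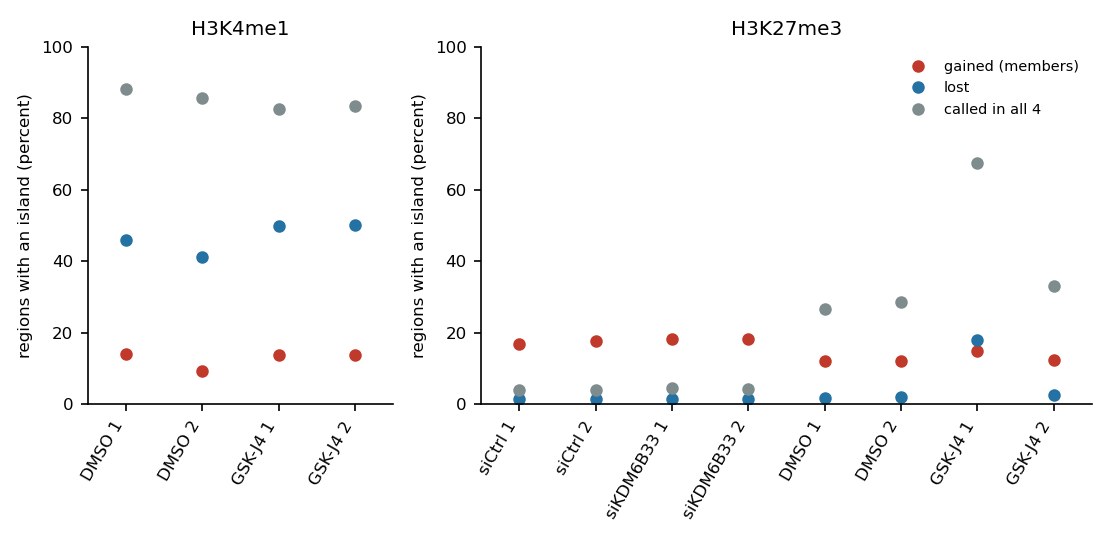
Percent of gained, lost and shared distal regions with an island (y axis) in each library (x axis), for H3K4me1 in the compound experiment on the left and H3K27me3 in all 8 libraries on the right. For H3K4me1 the gained regions lie at 9.33% to 14.1%, under the lost and the shared regions in each library, and for H3K27me3 they lie above both in the knockdown experiment and under the shared regions in the compound experiment.

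Gained distal regions were the nearest to 1511 of 19222 autosomal protein-coding genes (7.86%). Of 16 adrenergic regulators, 8 were nearest to at least 1 member, with 21 members in all, whereas 5 were nearest to a lost region and all 16 to some distal region. Lost regions were nearest to 12.6% of the genes and distal regions of any kind to 32.9%. GATA3, a zinc finger regulator of sympathetic neurons, and ISL1, a LIM homeobox regulator of the same lineage, had 6 members each. TBX2 had 3, MEIS2 had 2, and HAND2, TFAP2B, INSM1 and SOX11 had 1 each.

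The highest ISL1 member, at chr5:50782801-50792400 and 103 kb from the gene, had a lower score of 537 and summits of 4 and 4 tags with siCtrl and 21 and 20 with siKDM6B33. The HAND2 member, 296 kb from this sympathetic lineage regulator, had no narrow peak with siCtrl and summits of 40 and 32 tags with siKDM6B33. The GATA3 members lay 68.7 to 1241 kb from its start, with summits of 0 to 7 tags with siCtrl and 7 to 20 with siKDM6B33. None of the 21 adrenergic members had an H3K4me1 island with GSK-J4, and 2 had one in DMSO replicate 1. Of all members that were not CpG-island-like, 11.1% and 10.3% had one with GSK-J4 and 7.81% in DMSO replicate 1. With so few adrenergic members, their counts are not read as a difference from these shares. Among the 21, the INSM1 member alone had H3K27me3 islands, over 77.3% and 81.8% with siCtrl and 95.5% and 100% with siKDM6B33.

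Of 18 mesenchymal-state genes, 3 were nearest to a member, 4 to a lost region and 7 to some distal region. Those with a member were TBX18, TWIST1 and FN1. TBX18, a T-box regulator of mesenchyme, had 3 members, and the one at chr6:85482601-85484800 was covered over 100% by H3K27me3 islands in all 8 libraries and by H3K4me1 islands in all 4 compound libraries. Its summits were 6 and 0 tags with siCtrl and 30 and 20 with siKDM6B33. Of 25 cell cycle and E2F genes, 4 had a member, 4 a lost region and 11 some distal region, those with a member being E2F7, CDK6, AURKB and CDKN2C. The CDKN2C member, 5.28 kb from this cell cycle inhibitor gene, had 6 and 0 tags with siCtrl and 19 and 22 with siKDM6B33, and the E2F7 member lay 259 kb from E2F7 in the body of NAV3, over a NAV3 start outside the basic set, with H3K27me3 islands over 100% of it in all 8 libraries. Of 14 H3 lysine 4 and 27 enzymes only EZH2 had a member, at 56.2 kb, while 1 had a lost region and 2 some distal region. Of 13 p53 and ER stress genes 0 had a member, 1 a lost region and 5 some distal region. Of 12 neuronal differentiation genes 3 had a member, namely STMN2, MAP2 and NEFL, while 8 had a lost region and 10 some distal region.

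Long genes held several members. RBMS3, an RNA-binding protein gene of 1436 kb, held 10 members, and the overlapping annotation ENSG00000283563 held 9, so these are not separate. CNTN1, an axonal adhesion molecule, EBF1, a transcription factor, and TOX, a high-mobility-group protein, held 6 each in 380, 404 and 314 kb. Distal regions called in all 4 libraries numbered 9 in RBMS3, 3 in CNTN1, 6 in EBF1 and 7 in TOX, and lost regions 1 in RBMS3 and 0 in the other 3. None of the members in these genes was CpG-island-like. By nearest start, ZNF608, a zinc finger gene, had 11 members, RBMS3 had 9 and ITGA1 and TENM3 had 8 each.

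The densest stretch of 2 Mb was chr6:26000001-28000000, with 27 members of the 33 autosomal distal regions in it, of which 1 was lost and 2 were called in all 4 libraries. The next windows apart from it held 14 members or fewer. This stretch holds the main histone gene cluster, and 49 of the 67 protein-coding genes that start there were histone genes. It is also known to be rich in tRNA genes, which the annotation used does not list. The B box GTTCGANNC, a promoter element inside tRNA genes that was searched on both strands after the values were seen, occurred in 17 of these 27 members. Over all members it occurred in 298 of 2080, and its density of 56.0 per Mb was close to the 55.7 per Mb of all autosomal distal regions, with 89.0 per Mb in CpG-island-like members and 41.6 per Mb in the others. Of the 27 members, 8 were CpG-island-like, 9 had H3K27me3 in both siCtrl libraries and 1 had an H3K4me1 island in a compound library. Across chromosomes the share of distal regions that were members ran from 6.39% on chromosome 17 to 17.8% on chromosome 13.

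Motifs were searched on both strands in 300 bp around the strongest narrow peak of 2068 members and of 18685 autosomal distal regions. The SP/KLF motif GGGCGG was found in 54.7% of CpG-island-like members and 5.72% of the others, against 14.2% of all distal regions. The GATA motif AGATAA was found in 28.7% of the members that were not CpG-island-like, against 19.0% of lost and 21.2% of shared regions of that kind. It was found in 5.98% of CpG-island-like members, and in 21.4% of all members against 20.1% of all distal regions. The homeodomain motif TAATTA was found in 14.5% of these members, 7.73% of these lost and 10.3% of these shared regions, and in 2.54% of CpG-island-like members. Over all members it was found in 10.6%, against 9.32% of all distal regions. Both motifs are rich in A and T, and the windows of the members that were not CpG-island-like had a median GC content of 42.0%, against 51.7% and 49.3%. The E-box CAGCTG, bound by basic helix-loop-helix factors, was found in 19.4% of these members, against 26.9% of lost and 26.9% of shared regions of that kind, and in 19.3% of all members against 24.9% of all distal regions.

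The TFAP2 motif GCCNNNGGC was found in 30.8% of CpG-island-like members and in 7.43% of the others, against 17.8% of lost and 15.2% of shared regions that were not CpG-island-like. Over all members it was found in 15.0%, against 16.4% of all distal regions.

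The remaining motifs are given over all members. The AP-1 motif TGANTCA was found in 9.48% of members against 12.2% of all distal regions, the ETS motif CCGGAAGT in 1.21% against 0.401%, and the E2F motif TTTNGCGC in 0.919% against 0.359%. The ETS motif was in 2.84% of CpG-island-like members and 0.429% of the others, and the E2F motif in 2.09% and 0.357%. The CTCF core was found in 1.69% against 1.45%, the YY1 motif GCCATNTT in 4.21% against 4.44%, the forkhead motif TGTTTAC in 4.21% against 3.89%, and the TEAD motif GGAATGT in 2.61% against 3.78%. The E-box CACGTG was found in 4.50% against 5.29%. A match describes the letters of a window and not a bound factor.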

How the data were processed

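CUT&Tag libraries of BE2C cells, 16 in 8 groups of 2, were analysed from the deposited lists, with groups taken from the sample titles. Per the submitters' processing notes the authors used Trim Galore 0.4.4, BWA 0.7.12, Picard 1.65, SAMtools 1.3.1, SICER 1.1, MACS2 2.1.1 and bedtools 2.25.0, on hg19. The score in the deposited SICER island lists sums over windows of 200 bp and grows with depth and width. The deposited MACS2 narrow peak lists give the fold over background (a ratio), −log10 p and −log10 q. They hold no reads, so no count model was run.

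The members and gene lists were chosen with earlier results of these data known. Members were named by nearest protein-coding start, namely the 12 highest by the lower siKDM6B33 score, once per gene, and up to 5 for each change in the other contrasts, the 5 gene bodies with most members and the 5 highest lncRNA starts. ZNF608, ITGA1, TENM3 and the stretch on chromosome 6 were chosen after their values were seen. GENCODE 44 mapped to GRCh37 gave 56140 protein-coding starts, and 0 intervals ran past a chromosome end. The fold and −log10 p of a peak fix its summit pileup and background, solved in each library for 99.79% of peaks or more. From the 20 most frequent value pairs, the smallest background was taken to stand for depth, and few tags per summit limit the precision. Shares per library were compared by exact two-sided permutation or sign-flip tests. Region calls, pileup solving, motif search and tests were checked on simulated data. Python 3.11.15, NumPy 2.4.6, pandas 2.3.3, SciPy 1.17.1, pysam and matplotlib 3.10.9 were used. Alternatives were other joining, trimming, coverage and distance limits, narrow peaks, and leaving out each library.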

Additional observations from a re-analysis of the deposited data

How the results depend on the processing

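The 2080 gained distal regions became 1338 with equal numbers of islands per library, 951 with equal covered length and 863 when each list kept its higher-scoring islands down to the median. Of the 2080 regions, 63.9%, 42.4% and 10.9% were met by a gained region in these 3 sets. Their number ranged from 2341 to 2735 when a replicate was left out. The CpG-island-like share of 32.3% (95% Wilson interval 30.3% to 34.3%, counting error only) was 38.9%, 44.6% and 42.8% in those 3 sets, 18.2% in regions clear of any transcript's start, and 28.7% to 30.8% without a replicate. The use of these sets on this share, and the split into CpG-island-like and other regions, were chosen after the data were seen.

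For H3K4me1 with GSK-J4 the difference of 2.09 points reversed to -2.98 in CpG-island-like members, and it ranged from -0.312 to 4.50 without a replicate. For H3K27me3 after knockdown 0.986 points reversed to -1.11 with equal numbers of islands, was 4.09 by narrow peaks and ranged from 0.697 to 1.27 without a replicate. For H3K27me3 with GSK-J4 1.56 points reversed to -0.962 with equal numbers of islands, was 13.3 by narrow peaks and ranged from 0.216 to 2.91 without a replicate. The difference of members from lost regions ranged from -34.7 to -33.3 points for H3K4me1 and from 10.8 to 13.7 for H3K27me3 without a replicate, and the latter was 1.56 points in regions that were not CpG-island-like, or 3.56 without GSK-J4 replicate 1. The causes were not tested.

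A replicate block left the 3 differences between treatments at 2.09, 0.986 and 1.56 points (exact sign-flip permutation p = 1.00, 0.500 and 0.500, with 0.5 the smallest possible). The correlations of same-numbered deviations in island cover over 18854 regions were 0.001, -0.007, 0.035 and 0.045. The labels give the replicates only a number, and these correlations cannot show whether same-numbered libraries shared a culture.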
